A study of Mus musculus with 15 samples.

Results

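The 40 genes described here mark the macrophages of the liver: the resident Kupffer cells, monocytes and macrophages that come in from blood, and the chemokines that draw them. They were chosen by name, with earlier results of these data known. Each was read from the probe set with the highest mean log2 intensity among probe sets annotated with that gene alone. All 40 listed genes had such a probe set, out of 19938 genes measured this way. Liver mRNA came from 15 male mice aged 7.5 months, give or take 2.5 weeks, with 1 array per animal. Wild-type mice (129S1/SvlmJ) received corn oil (n = 4) or di(2-ethylhexyl) phthalate, DEHP, in corn oil (n = 4). PPARα-null mice (129S4/SvJae-Pparatm1Gonz/J) likewise received corn oil (n = 4) or DEHP (n = 3). DEHP is a plasticiser that activates PPARα, the nuclear receptor of fatty acids, and was given by gavage at 1150 mg/kg/day in 4 daily doses. All groups had therefore been gavaged with corn oil. Per the labels, both genotypes were bought and then kept as an inbred colony on a 129/Sv background, and since they carry different 129 substrain names, a difference by genotype and one by substrain cannot be told apart. The null allele is a germline change, so it is not limited to hepatocytes or to macrophages.

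Kupffer cells sit in the liver sinusoids, where they clear particles, old red cells and complement-coated bacteria. When the liver is injured or loaded with lipid, monocytes carrying the chemokine receptor Ccr2 enter from blood and become macrophages. Some of these take on a lipid-associated state, with high Trem2, Gpnmb, Lgals3 and Mmp12. The arrays measured whole liver, so fewer cells of a type and less RNA per cell cannot be told apart for any gene below.

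Within a group, pairs of arrays had r = 0.988 to 0.992 over all probe sets, and the arrays' median intensities were 44.4 to 47.5. Precision is limited by how many arrays there were. Ppara, the targeted gene, was lower in null than in wild-type liver by -0.69 ± 0.12 log2 under corn oil and by -0.64 ± 0.13 under DEHP (adjusted p = 0.00645 and 0.00422, limma). Its probe set still read a mean log2 of 9.09 in null controls, and its position relative to the deleted exons is unknown here. The tissue label was borne out by the hepatocyte marker list, whose 9 measured genes summed to intensities of 80600 to 88000. The files hold no detection calls, and 4 of the 40 genes (Tlr4, Ccr2, Itgax and Ccl4) had a mean log2 under 5 in every group. Differences below are log2 differences of group means ± standard error. A gene is said to be higher, lower or changed as a result only where the p from limma, adjusted over all 19938 genes, was below 0.05.

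The largest differences between null and wild-type controls were those of Mmp12, Gpnmb, Ccl3 and Lyz2. Their promoters are shown because these genes read high in the same null livers, and because Spi1 (PU.1), the lineage factor of macrophages, is itself among the 40 genes. Each is the 250 bases before the start site as given by RefSeq on GRCm38.p6, 5′ to 3′ on the strand of the gene. Capitals mark matches to the PU.1 core AGGAAGT, which here lies on the opposite strand and so reads as its reverse complement.
Mmp12, chr9:7344147-7344396, plus strand: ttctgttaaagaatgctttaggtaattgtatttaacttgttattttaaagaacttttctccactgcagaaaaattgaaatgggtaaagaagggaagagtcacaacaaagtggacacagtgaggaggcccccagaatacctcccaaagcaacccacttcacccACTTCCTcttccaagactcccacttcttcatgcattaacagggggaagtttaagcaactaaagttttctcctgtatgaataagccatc
Gpnmb, chr6:49036268-49036517, plus strand: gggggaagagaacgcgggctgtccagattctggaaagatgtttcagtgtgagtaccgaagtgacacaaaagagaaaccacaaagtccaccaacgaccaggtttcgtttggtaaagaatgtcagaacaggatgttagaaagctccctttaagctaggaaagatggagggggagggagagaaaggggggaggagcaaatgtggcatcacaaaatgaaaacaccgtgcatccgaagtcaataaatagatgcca
Ccl3, chr11:83649379-83649628, minus strand: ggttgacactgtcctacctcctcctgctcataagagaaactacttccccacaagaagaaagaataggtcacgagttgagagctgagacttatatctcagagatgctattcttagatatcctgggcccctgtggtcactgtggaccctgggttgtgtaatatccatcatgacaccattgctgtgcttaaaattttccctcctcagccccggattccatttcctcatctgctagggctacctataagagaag
Lyz2, chr10:117282273-117282522, minus strand: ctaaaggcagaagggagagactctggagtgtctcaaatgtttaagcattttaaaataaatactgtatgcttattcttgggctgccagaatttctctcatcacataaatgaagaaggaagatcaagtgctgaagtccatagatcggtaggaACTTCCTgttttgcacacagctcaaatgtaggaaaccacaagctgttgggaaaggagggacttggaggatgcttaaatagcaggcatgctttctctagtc
Mmp12 carried the core at -88 to -82 from the start shown and Lyz2 at -100 to -94. The windows printed for Gpnmb and Ccl3 held no match. Mmp12 has a second listed start, whose window (chr9:7347124-7347373) is not printed and held no match. Of the 40 genes, 30 had an entry in the promoter table, which runs from 250 bases before to 50 after the start. In those windows, searched on both strands, the core was present in 7 genes (C1qb, C1qc, Ctss, Fcgr1, Folr2, Lyz2 and Mmp12). It was present in 9.35% of all 32851 promoters of that length. A loose NF-κB site (GGG, any 2 bases, then TTTCC) was found in Fcgr3 and Marco only, and in 1.63% of all promoters. No promoter of the 30 genes held a strict NF-κB site (GGGAC then TTTCC) or a PPAR element (AGGTCA, any base, AGGTCA), which were present in 0.155% and 0.0396% of all promoters. These are matches of letters, not sites of binding.

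Whether livers lacking PPARα differ in their macrophages before any DEHP was read from null against wild-type mice given corn oil. In null livers 8 of the 40 genes were higher and 0 were lower. All 40 estimates lay above 0, beside 46.8% over all genes. The 40 genes were read in the same livers, so their estimates are not independent of each other. The 8 were Mmp12, Gpnmb and Lgals3 of the lipid-associated group, the chemokine Ccl3, the monocyte receptor Ccr2, and Lyz2, Mpeg1 and Cybb among the general macrophage genes. Over all genes 0.642% were higher and 1.19% changed in either direction in this comparison. In 20 of the 40 genes every null animal read above every wild-type animal, against 4.06% of all genes. The median difference of the 40 genes was 0.33, beside -0.01 over all genes tested. Because the list was chosen with earlier results of these data known, these shares describe it and do not test it.

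Mmp12, which encodes macrophage elastase, showed the largest difference. Its log2 intensity was 5.0, 4.83, 5.07 and 4.93 in the wild-type controls (WT-52, WT-53, WT-54 and WT-55) and 7.44, 7.54, 9.33 and 6.44 in the null controls (KO-115, KO-116, KO-117 and KO-118). The groups did not overlap, and KO-117 stood well above its group. The difference was 2.73 ± 0.40, a fold of 6.64 (adjusted p = 0.00128). Gpnmb, a membrane glycoprotein of lipid-laden macrophages, followed the same animals. It read 4.69, 4.75, 4.60 and 4.71 in wild-type controls and 5.59, 6.43, 8.44 and 5.99 in null controls, with no overlap. The difference was 1.92 ± 0.40, a fold of 3.80 (adjusted p = 0.0262), and 1.32 (adjusted p = 0.00061) without KO-117. Gpnmb lost its call when any single wild-type control was omitted, with an adjusted p of up to 0.0822. Lgals3, which encodes the lectin galectin-3, read 6.59, 6.59, 6.55 and 6.70 in wild-type controls and 7.24, 7.13, 7.53 and 6.88 in null controls. Every null control again lay above the wild types, and the difference was 0.59 ± 0.11 (adjusted p = 0.012). Trem2, the lipid-sensing receptor that defines the lipid-associated state, did not pass the test. Its values were 5.96, 5.85, 5.91 and 6.0 in wild-type controls and 5.92, 6.01, 6.24 and 5.92 in null controls, a difference of 0.09 ± 0.08 (adjusted p = 0.728). Thus 3 of the 4 genes of this group were higher, with a group median of 1.26.

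**Figure D1:**
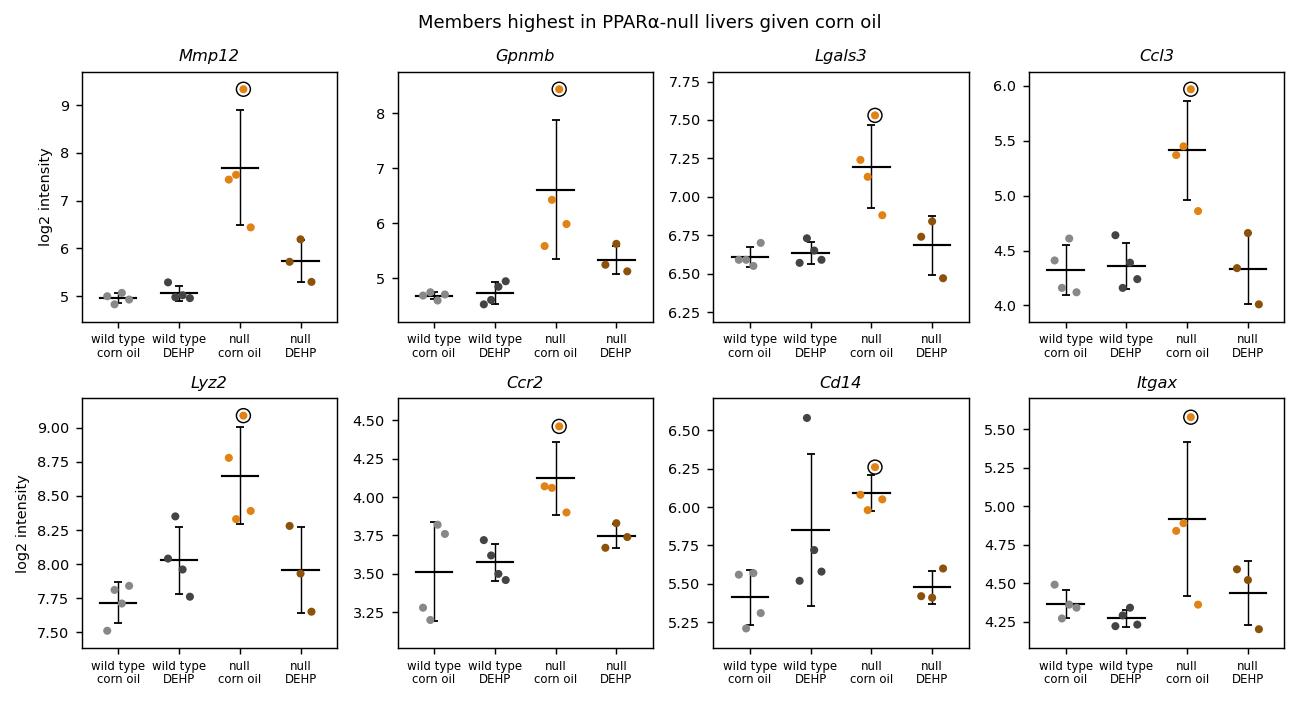
Log2 intensity (vertical axis) of 8 genes in each liver, by group; points are animals, the horizontal line is the group mean and the bar its SD (n = 4, 4, 4 and 3), and the ringed point is KO-117. Mmp12 reads 6.44 to 9.33 in null livers given corn oil and 4.83 to 6.19 in all other livers.

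Among the chemokines Ccl3, an attractant of monocytes made by activated macrophages, was the only gene to pass the test. It read 4.41, 4.16, 4.61 and 4.12 in wild-type controls and 5.37, 5.45, 5.97 and 4.86 in null controls. The groups did not overlap, and the difference was 1.09 ± 0.19, a fold of 2.13 (adjusted p = 0.00817). Its readings were dim, with a mean of 4.32 in wild-type controls and 5.41 in null controls. Ccl2, the ligand of Ccr2, read 5.03, 5.11, 4.92 and 4.76 against 5.17, 5.32, 5.68 and 4.96. Its groups overlapped (0.33 ± 0.13, adjusted p = 0.297, and 0.20 without KO-117). Ccl4, a close relative of Ccl3 whose RefSeq gene model overlaps it, read 4.78, 4.87, 4.88 and 4.97 against 5.12, 5.03, 4.88 and 4.84 (0.09 ± 0.09, adjusted p = 0.755). The high reading of Ccl3 was thus not seen in Ccl4.

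The recruited monocyte and myeloid group held 1 gene that passed, Ccr2. It read 3.28, 3.20, 3.82 and 3.76 in wild-type controls and 4.07, 4.06, 4.46 and 3.90 in null controls, a difference of 0.61 ± 0.14 (adjusted p = 0.0423). These readings are dim, and the adjusted p reached 0.142 without WT-52, with 5 of 8 single omissions losing the call. Itgam, the integrin CD11b of monocytes and neutrophils, read 4.96, 5.23, 5.29 and 5.23 against 6.29, 5.41, 5.81 and 5.31. The groups did not overlap but the spread among nulls was wide (0.53 ± 0.18, adjusted p = 0.204). Itgax, the dendritic cell and macrophage integrin CD11c, differed by 0.55 ± 0.17 (adjusted p = 0.16), with KO-117 highest at 5.58. Without KO-115 the difference of Itgam was 0.33, and without KO-117 that of Itgax was 0.33. The fractalkine receptor Cx3cr1 differed by 0.11 ± 0.08 (adjusted p = 0.691).

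Of the 9 general macrophage genes 3 were higher in null controls. Mpeg1, a pore-forming protein of phagocytes, read 7.60, 7.46, 7.48 and 7.53 in wild-type controls and 8.41, 8.01, 8.25 and 8.36 in null controls. The separation was wide and did not rest on KO-117 (0.74 ± 0.13, adjusted p = 0.00747). Cybb, the catalytic subunit of the phagocyte NADPH oxidase, read 7.38, 7.85, 7.51 and 7.71 against 8.38, 8.25, 8.31 and 8.35. The null values were tight and all above the wild types (0.71 ± 0.14, adjusted p = 0.016), though 3 of 8 single omissions lost the call, with an adjusted p of up to 0.0628 without WT-52. Lyz2, which encodes lysozyme, read 7.51, 7.81, 7.71 and 7.84 against 8.78, 8.33, 9.09 and 8.39 (0.93 ± 0.17, adjusted p = 0.00894). Lyz2 has a near-identical neighbour, Lyz1, whose own probe set showed the same order of group means (5.35 in wild-type and 6.05 in null controls), and signal between the pair may be shared. Other genes of the group missed the threshold. Ctss, the lysosomal protease cathepsin S, read 8.33, 8.46, 8.22 and 8.42 against 8.93, 8.77, 9.05 and 8.85 (0.55 ± 0.13, adjusted p = 0.0663). Csf1r, the receptor that keeps macrophages alive, read 8.24, 8.39, 8.19 and 8.31 against 8.81, 8.55, 8.49 and 8.74 (0.37 ± 0.10, adjusted p = 0.115). Both were separate between the groups. Cd68, a lysosomal glycoprotein of macrophages, read 7.25, 7.44, 7.06 and 7.32 against 7.55, 7.45, 8.02 and 7.64 (0.40 ± 0.14, adjusted p = 0.214). Laptm5 (0.49), the scavenger receptor Msr1 (0.14) and Aif1 (0.03) did not pass either.

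The resident Kupffer cell group had 0 of 8 genes past the test and the smallest median, 0.15. In no gene of this group did the null controls all lie above the wild types. Clec4f, a lectin specific to Kupffer cells, read 8.83, 8.90, 8.85 and 8.87 in wild-type controls and 9.07, 8.75, 8.71 and 9.41 in null controls (0.12 ± 0.15, adjusted p = 0.833). Timd4, a receptor for dying cells found on long-lived Kupffer cells, read 6.78, 6.91, 6.79 and 6.90 against 6.94, 6.86, 6.54 and 7.20. Its mean differed by 0.04 ± 0.13 (adjusted p = 0.949). Vsig4, a complement receptor, read 8.38, 8.70, 8.50 and 8.74 against 8.79, 8.75, 8.44 and 9.04 (0.18 ± 0.13, adjusted p = 0.658). In all of these 3 genes KO-117, the animal highest in every gene of the lipid-associated group, was the lowest null control. Cd5l, an apoptosis inhibitor secreted by Kupffer cells, read 8.08, 8.42, 8.01 and 8.45 against 8.55, 8.41, 8.31 and 8.73 (0.25 ± 0.16, adjusted p = 0.572). The scavenger receptor Marco read 5.38, 5.58, 5.70 and 5.36 against 5.91, 5.72, 5.72 and 5.67 (0.25 ± 0.11, adjusted p = 0.395). Adgre1, the pan-macrophage antigen of the mouse, showed the largest estimate in the group, 0.37 ± 0.13 (adjusted p = 0.248), with 6.80, 7.20, 6.87 and 6.85 against 7.58, 7.05, 7.18 and 7.38. Folr2 and the haemoglobin scavenger receptor Cd163 differed by 0.08 and 0.13. Over the 8 resident genes KO-117 was the lowest null control in 6, and KO-118 the highest in 6.

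The remaining groups lay between. C1qa, C1qb and C1qc, the chains of the complement trigger made by macrophages, differed by 0.29, 0.37 and 0.28, and none passed. C1qa read 8.24, 8.43, 8.19 and 8.39 against 8.78, 8.36, 8.42 and 8.84, with overlap. Of the pattern recognition genes Cd14, the co-receptor for bacterial lipopolysaccharide, read 5.56, 5.21, 5.57 and 5.31 against 6.08, 5.98, 6.26 and 6.05. Those groups were well apart, with a difference of 0.68 ± 0.18 (adjusted p = 0.0839). Tlr2 and Tlr4 differed by 0.35 and 0.15. The transcription factors Spi1 and Irf8 differed by 0.34 ± 0.09 and 0.19 ± 0.07 (adjusted p = 0.0766 and 0.266), each without overlap between the groups. The adaptors Tyrobp and Fcer1g and the Fc receptors Fcgr1 and Fcgr3 differed by 0.16 to 0.33, and none of the 4 passed.

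Of the null controls KO-117 read highest in 17 of the 40 genes, KO-115 in 12, KO-118 in 10 and KO-116 in 1. In the lipid-associated group KO-117 was highest in all 4 genes and KO-115 lowest in 2. Some genes outside the 40 were high in KO-115 and KO-117. Chil3, a chitinase-like protein of monocytes and alternatively activated macrophages, read 6.43 in KO-115 and 5.81 in KO-117 and stayed below 4 in every other liver. The collagen gene Col1a1 read 8.13 and 8.09 in this pair, against 6.79 to 6.93 in wild-type controls. It read 7.41 in KO-116, also above the wild-type controls, and 6.80 in KO-118. The summed intensity of the 10 stellate cell markers ran from 2260 to 2420 in wild-type and from 2680 to 3520 in null controls, with Col1a2 the only marker past the test (0.78 ± 0.18, adjusted p = 0.0474). The sums of the 11 neutrophil markers overlapped (261 to 296 and 269 to 382), as did those of the 10 sinusoidal endothelial markers (3370 to 3820 and 3420 to 3790). Those of the 12 dendritic cell markers did not (2230 to 2620 and 2930 to 3440), though none of these markers passed the test. The brightest of them were H2-Ab1, H2-Aa, Cd74 and H2-Eb1. The 5 monocyte markers summed to 5280 to 5760 and 6070 to 6800, a sum made mostly of Fn1, which hepatocytes also make. The part of these cell types in the macrophage readings was not tested. With KO-115 and KO-117 both left out, a check chosen after seeing the data, 2 of the 40 genes were called, Gpnmb and Mmp12. The differences of the other 6 genes were then 0.64 for Lyz2, 0.67 for Mpeg1, 0.69 for Cybb, 0.47 for Ccr2, 0.40 for Lgals3 and 0.83 for Ccl3. Mmp12, Ccl3, Lyz2, Lgals3 and Mpeg1 kept their calls under each of the 8 single omissions.

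Other genes of macrophage signalling came from lists read in the same way, beside the 1.19% of all genes given above. Of 17 further chemokines 2 were higher in null controls, Cxcl10 (0.89 ± 0.14, adjusted p = 0.00392), which attracts T cells, and Ccl6 (0.54 ± 0.11, adjusted p = 0.0177). The inflammatory cytokine list gave 1 of 11, Il1a (0.40 ± 0.09, adjusted p = 0.0302), and the Toll-like receptor and NF-κB list 1 of 17, Tlr7 (0.44 ± 0.09, adjusted p = 0.0173). None passed among 7 chemokine receptors, 10 regulators and growth factors of Kupffer cells, 7 genes of iron and haem handling and 9 genes of activation states.

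**Figure D2:**
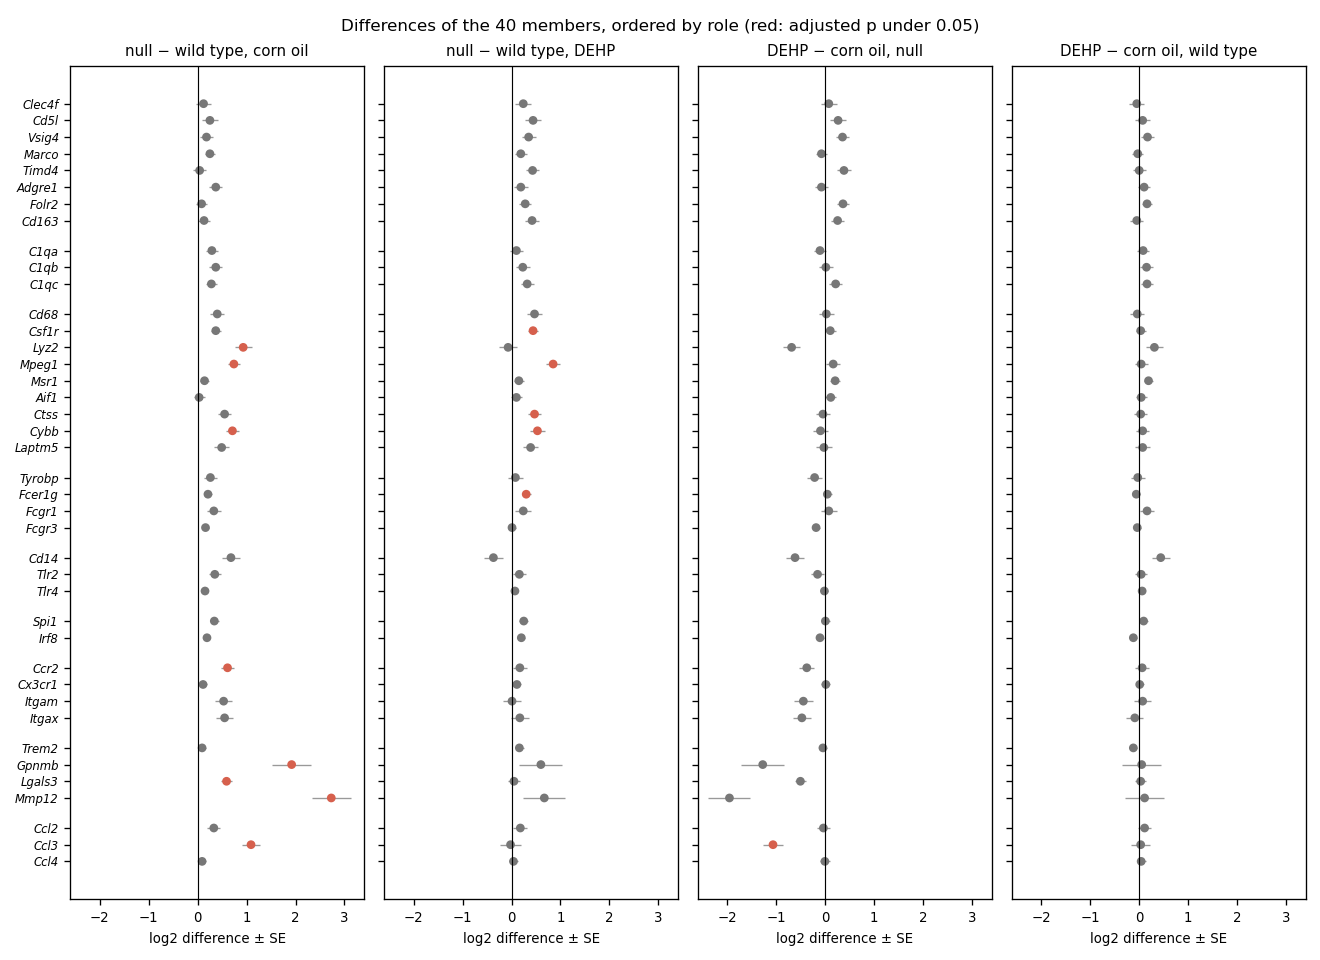
Log2 difference ± standard error (horizontal axis) of the 40 genes in 4 comparisons, ordered from resident Kupffer cell genes at the top to chemokines at the bottom; red points have an adjusted p under 0.05. Under corn oil 8 genes are red and all 40 points lie right of 0, and no point is red for DEHP in wild-type liver.

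The response of wild-type liver to DEHP showed no called gene among the 40: 0 of 40 passed the test in limma, where 3.86% of all genes did. At an unadjusted p under 0.05 only Cd14 was counted, 1 of 40, against 16.8% of all genes. Not a single gene had groups that did not overlap, against 11.9% of all genes, and the 40 differences ran from -0.12 to 0.44 with a median of 0.05. Macrophage genes as different as Clec4f, Mpeg1, Mmp12 and Ccl3 all read near their corn oil level.

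In Cd14 the wild-type DEHP livers (WT-56, WT-57, WT-58 and WT-59) read 5.52, 6.58, 5.72 and 5.58. The difference from corn oil was 0.44 ± 0.18 (adjusted p = 0.212), and WT-57 alone stood high, with 0.19 left without it. Lyz2 read 8.04, 8.35, 7.96 and 7.76 (0.31 ± 0.17, adjusted p = 0.384), also highest in WT-57 (0.20 without it). Msr1 read 6.81, 6.66, 7.02 and 7.12 against 6.59, 6.75, 6.75 and 6.76 under corn oil (0.19 ± 0.09, adjusted p = 0.32). The 2 lowest estimates were those of Irf8 and Trem2, both -0.12. Irf8, a factor of monocyte and dendritic cell development, read 6.38, 6.39, 6.21 and 6.16 against 6.46, 6.38, 6.34 and 6.44 (adjusted p = 0.421). Trem2 read 5.90, 5.92, 5.76 and 5.66 (adjusted p = 0.502). The genes high in null controls stayed low here: Mmp12 read 5.29, 4.98, 5.02 and 4.96, Gpnmb 4.53, 4.61, 4.85 and 4.95, and Ccl3 4.64, 4.16, 4.39 and 4.24.

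In the DEHP-treated wild-type livers the same animals were often the highest or the lowest. WT-58 read highest of the group in 25 of the 40 genes and WT-59 lowest in 25. Clec4f, for example, read 8.77, 8.74, 9.25 and 8.49, Cd5l 8.40, 8.23, 8.71 and 7.90, and Csf1r 8.33, 8.40, 8.52 and 8.0. The standard deviation of Clec4f was 0.32 in this group and 0.03 in its controls. All 8 resident genes were highest in WT-58.

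Genes of the related lists did change in wild-type livers. The cytokine receptor Csf2rb rose by 0.61 ± 0.14 (adjusted p = 0.0189) and the interleukin-1 antagonist Il1rn by 0.62 ± 0.16 (adjusted p = 0.0418). For Il1rn 6 of 8 single omissions ended the call, at an adjusted p of up to 0.129. Bmp2, made by sinusoidal endothelium, fell by 0.43, and the chemokine Ccl9 fell by 0.36 (adjusted p = 0.0333 and 0.03). Hpgd (0.39), Ackr1 (0.32) and Irak1 (0.24) rose. S100a8, a calcium-binding protein of neutrophils and monocytes, rose by 1.78 ± 0.24 (adjusted p = 0.00061), the only 1 of 11 neutrophil markers to pass. The endothelial markers Stab2 and Fcgr2b fell by 0.33 and 0.35, the stellate markers Reln and Ecm1 by 0.50 and 0.38, Fn1 by 0.27 and the hepatocyte marker Cps1 by 0.34.

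In null liver DEHP lowered Ccl3, the only 1 of the 40 genes past the test, beside 0.471% of all genes in either direction and 0.311% lower. Groups did not overlap, with DEHP lower, in 6 genes (Lyz2, Cd14, Ccr2, Lgals3, Mmp12 and Ccl3), against 4.42% of all genes. With DEHP higher they did not overlap in 2 (Folr2 and Msr1), against 5.57%. At an unadjusted p under 0.05, 10 genes were lower and 3 higher, against 5.83% and 6.46% of all genes. This comparison uses the same 4 null corn oil livers as the comparison of genotypes above, so the comparisons are not independent.

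Ccl3 read 4.34, 4.66 and 4.01 in the null DEHP livers (KO-121, KO-122 and KO-123), all below the null controls and around the wild-type readings of 4.12 to 4.64. The difference was -1.07 ± 0.21, a fold of 0.475 (adjusted p = 0.0369). This call was lost in 5 of 7 single omissions, without KO-115, KO-117, KO-121, KO-122 or KO-123, at an adjusted p of up to 0.103. It was also lost when the 2 groups were fitted alone (adjusted p = 0.262). Mmp12 read 5.72, 6.19 and 5.30, below every null control. These lay above every wild-type liver too, but only just, as WT-56 read 5.29. The difference of Mmp12 was larger, -1.96 ± 0.43, but missed the threshold (adjusted p = 0.0582), and it passed without KO-117 (-1.41, adjusted p = 0.0433). With KO-115 and KO-117 both left out it was -1.26 (adjusted p = 0.1). Lgals3 read 6.74, 6.84 and 6.47 (-0.51 ± 0.12, adjusted p = 0.0672). Gpnmb read 5.25, 5.63 and 5.13 and overlapped the null controls at their low end (-1.28 ± 0.44, adjusted p = 0.214). Without KO-117 this difference was -0.67 (adjusted p = 0.148). Trem2 stayed level at 5.92, 6.06 and 5.92. The lipid-associated group had a median of -0.89, and of -0.53 without KO-117, beside 0.01 over all genes tested.

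Other genes with the same order of groups also missed the threshold. Lyz2 read 8.28, 7.93 and 7.65, below each null control (-0.69 ± 0.18, adjusted p = 0.0959). Cd14 read 5.42, 5.41 and 5.60, at the level of wild-type controls (-0.62 ± 0.19, adjusted p = 0.159). Ccr2 read 3.67, 3.83 and 3.74 (-0.38 ± 0.15, adjusted p = 0.291). Itgam at 5.25, 5.56 and 4.97 overlapped the null controls (-0.45 ± 0.19, adjusted p = 0.353), and so did Itgax (-0.48 ± 0.19, adjusted p = 0.284). Without KO-115 the difference of Itgam was -0.25, and without KO-117 that of Itgax was -0.26. The recruited group as a whole had a median of -0.41, with -0.26 without KO-117 and -0.15 with KO-115 and KO-117 left out. Ccl2 at 5.29, 5.28 and 5.17 and Ccl4 at 4.97, 5.08 and 4.81 differed from null controls by -0.04 and -0.01.

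None of the 8 resident genes passed the test, and 6 of the 8 estimates lay above 0, as did 54.6% over all genes. Timd4 read 7.27, 7.42 and 7.10 (0.38 ± 0.14, adjusted p = 0.245), and Vsig4 9.03, 9.25 and 9.03 (0.35 ± 0.14, adjusted p = 0.305). Only the highest null control, KO-118, lay within the range of those values in each gene. Folr2, the folate receptor of resident macrophages, lay between 7.01 and 7.40 against 6.80 to 6.93 in null controls, without overlap (0.36 ± 0.12, adjusted p = 0.204). Cd5l read 8.85, 8.93 and 8.48 (0.26 ± 0.17, adjusted p = 0.591) and Cd163 differed by 0.25. Clec4f at 9.17, 9.08 and 8.90, Marco at 5.72, 5.86 and 5.43 and Adgre1 at 7.39, 7.13 and 7.13 differed by 0.07, -0.08 and -0.08. The group's median was 0.25. KO-123 was the lowest of the 3 null DEHP livers in 33 of the 40 genes and KO-122 the highest in 21.

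**Figure D3:**
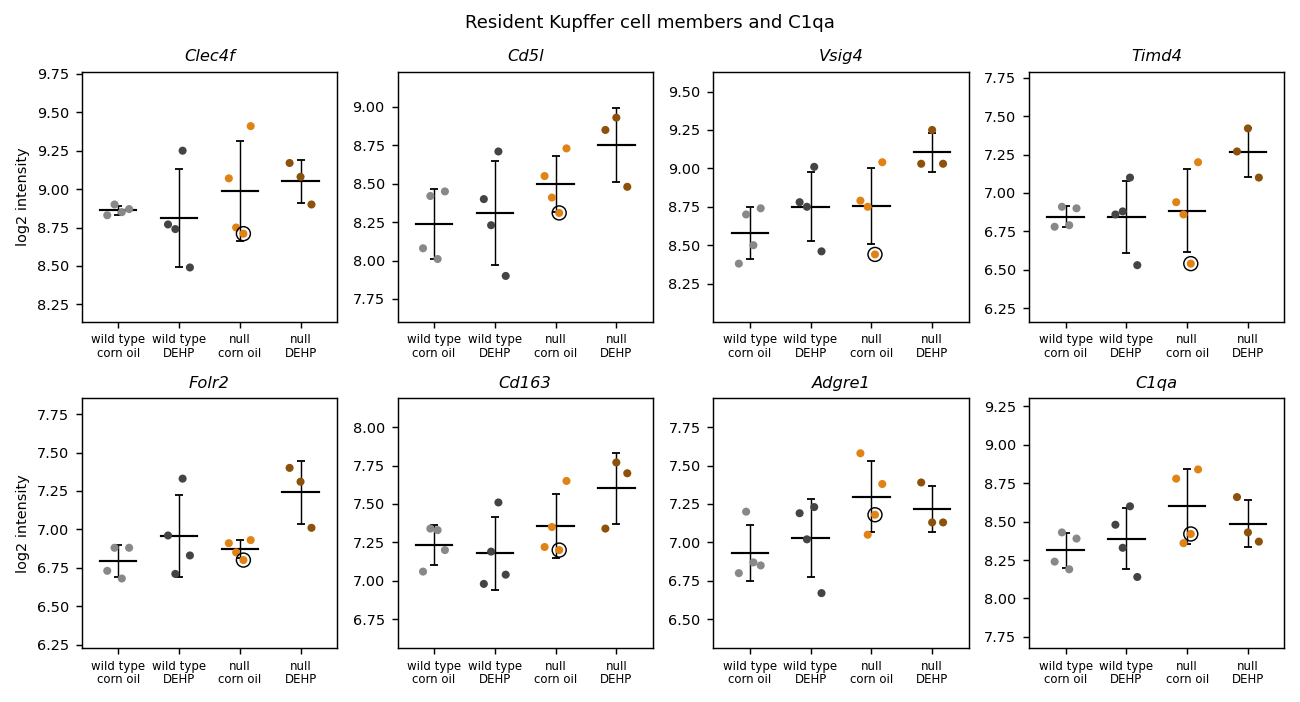
Log2 intensity (vertical axis) of 7 resident Kupffer cell genes and C1qa in each liver, by group; points are animals, the line is the group mean, the bar the SD (n = 4, 4, 4 and 3), and the ringed point is KO-117. Timd4 reads 7.10 to 7.42 in null livers given DEHP and 6.54 to 7.20 in null livers given corn oil.

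Most general macrophage genes, Lyz2 aside, read close to the null controls, and none passed the test. Mpeg1 read 8.64, 8.49 and 8.12 (0.16 ± 0.14, adjusted p = 0.727), Cybb 8.40, 8.23 and 8.02, Ctss 8.96, 9.02 and 8.57, Csf1r 8.90, 8.73 and 8.63, and Cd68 7.80, 7.82 and 7.44. Their differences from null controls ran from -0.10 to 0.16. Spi1 and Irf8 differed by 0.00 and -0.11, and C1qa, at 8.66, 8.43 and 8.37, by -0.11. Msr1 read 7.03, 7.14 and 6.99 (0.20 ± 0.10, adjusted p = 0.428). Of the related lists only the regulators had genes past the test, Id1 (-0.59 ± 0.12, adjusted p = 0.0461) and Id3 (-0.94 ± 0.18, adjusted p = 0.0351), targets of bone morphogenetic protein signalling, Id3 being a factor of Kupffer cell identity that hepatocytes and endothelium express too. The summed stellate markers ran from 2470 to 3120, the neutrophil markers from 308 to 375 and the dendritic cell markers from 1660 to 2860, against 2930 to 3440 for the last in null controls. The 10 sinusoidal endothelial markers summed to 3790 to 4160 (3420 to 3790 in null controls) and the 7 iron and haem genes to 7230 to 7940 (6190 to 7300). All estimates of both lists lay above 0, with a median of 0.14 in each, and none passed the test. Their part in these readings was not tested.

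Whether DEHP acted differently in the genotypes was read from the difference of its effects, null minus wild type. None of the 40 genes passed this test (0 in limma), beside 0.898% of all genes. At an unadjusted p under 0.05, 7 were counted, all with a more negative DEHP effect in null than in wild-type liver, against 6.35% of all genes in that direction. These 7 rest on the same null corn oil livers as the comparisons above. The smallest adjusted p values were those of Cd14 (-1.05 ± 0.26, 0.0658), Lyz2 (-1.0 ± 0.25, 0.0675), Ccl3 (-1.11 ± 0.29, 0.0772), Mmp12 (-2.06 ± 0.58, 0.101) and Lgals3 (-0.54 ± 0.16, 0.13). Hence a fall of Ccl3 in null liver only was not established by the test of that difference. For Cd14 part of the estimate came from WT-57, and without this animal it was -0.81 with an adjusted p of 0.0217. The resident genes had a median of 0.18, of which Timd4 had the largest estimate (0.38 ± 0.19, adjusted p = 0.394). Outside the 40 genes, Stab2 (0.43 ± 0.08, adjusted p = 0.0234) and Fcgr2b (0.53 ± 0.12, adjusted p = 0.0416), 2 of the 10 sinusoidal endothelial markers, passed this test.

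Under DEHP null livers again read higher than wild type in part of the genes, of which Mpeg1 and Cybb were higher under corn oil too. Here 5 of the 40 were higher and 0 lower, in a comparison where 5.09% of all genes were higher and 10.7% changed in either direction. They were Mpeg1, Csf1r, Cybb and Ctss of the general macrophage group and Fcer1g, the shared signalling chain of Fc receptors. The groups did not overlap, with nulls higher, in 7 of 40 genes (Vsig4, Timd4, Csf1r, Mpeg1, Cybb, Gpnmb and Mmp12), against 11% of all genes. The median difference was 0.20, and 0.31 without KO-123, beside 0.02 over all genes.

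Mpeg1 read 7.71, 7.40, 7.86 and 7.27 in wild-type and 8.64, 8.49 and 8.12 in null DEHP livers, a difference of 0.85 ± 0.14 (adjusted p = 0.00109). It was the only gene of the 5 whose call held in each of the 7 single omissions. Csf1r differed by 0.44 ± 0.11 (adjusted p = 0.0193) and was lost without KO-121 or KO-122, at an adjusted p of up to 0.0857. Cybb read 7.74, 7.78, 8.0 and 7.22 in wild types (0.53 ± 0.15, adjusted p = 0.0318). Ctss read 8.37, 8.46, 8.73 and 7.96 and overlapped the nulls (0.47 ± 0.14, adjusted p = 0.0476). Fcer1g read 6.88, 6.94, 7.18 and 6.73 against 7.35, 7.24 and 7.11 (0.30 ± 0.09, adjusted p = 0.0401). Under corn oil Fcer1g had read 6.94, 7.04, 6.96 and 7.01 in wild-type and 7.29, 7.17, 7.12 and 7.21 in null livers (0.21 ± 0.08, adjusted p = 0.305). Calls of Ctss, Fcer1g and Cybb were each lost without WT-56, WT-59, KO-121 or KO-122, and those of Ctss and Fcer1g also without WT-57, at adjusted p of up to 0.211, 0.161 and 0.129. Fitted alone, the 2 groups called 2 of the 40 genes, Mpeg1 and Gpnmb, the latter not among the 5. Csf1r, Ctss, Cybb and Fcer1g then lost their calls (adjusted p = 0.0681, 0.152, 0.103 and 0.141). Without WT-58, the wild-type liver that read highest in most genes, 10 were called.

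**Figure D4:**
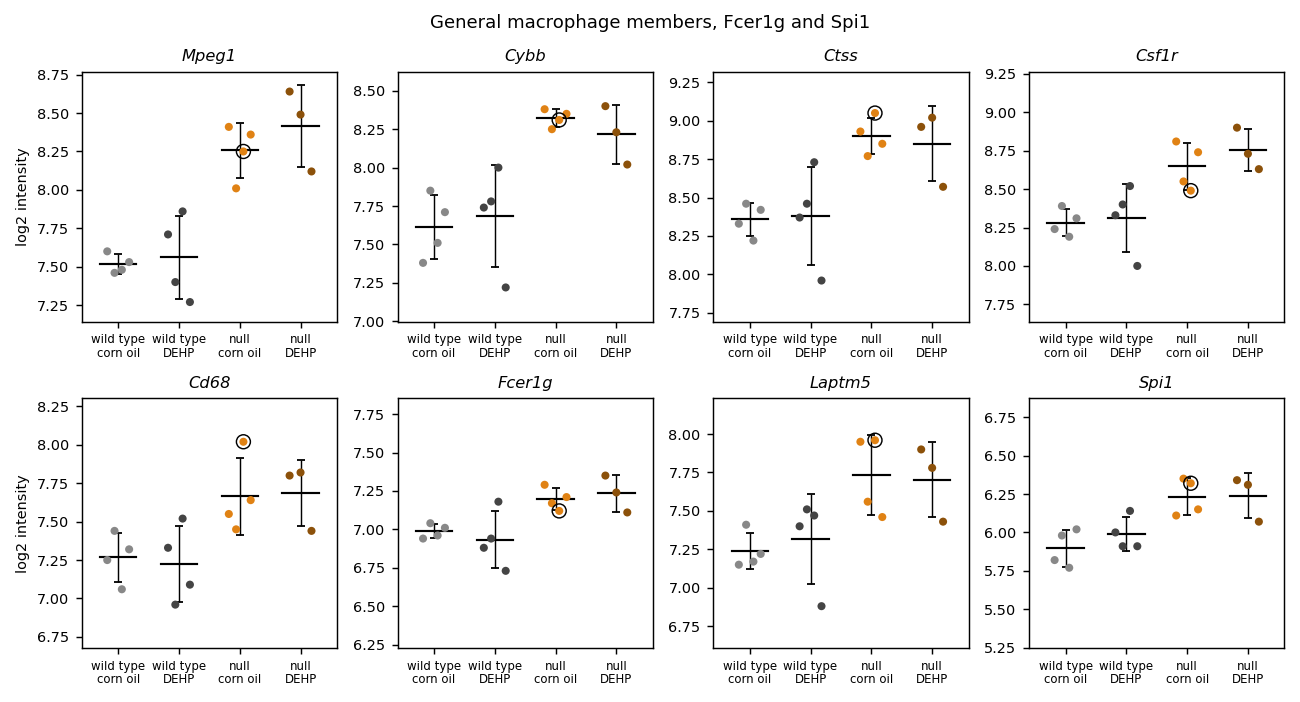
Log2 intensity (vertical axis) of 8 genes, most of them general macrophage genes, in each liver, by group; points are animals, the line is the group mean, the bar the SD (n = 4, 4, 4 and 3), and the ringed point is KO-117. Mpeg1 reads 8.01 to 8.64 in all 7 null livers and 7.27 to 7.86 in all 8 wild-type livers.

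Of the 8 genes higher in null controls, 6 did not pass the test by genotype under DEHP. Ccl3 differed by -0.02 ± 0.21, Lyz2 by -0.07 ± 0.18, Lgals3 by 0.05 ± 0.12 and Ccr2 by 0.17 ± 0.15. Mmp12 and Gpnmb remained above each wild-type DEHP liver, by 0.67 ± 0.43 and 0.60 ± 0.44 in the mean, without passing the test (adjusted p = 0.395 and 0.475). For Mmp12 the lowest null DEHP liver read 5.30 and the highest wild-type DEHP liver 5.29. Without KO-122 the difference of Mmp12 was 0.44. Cd14 had a lower mean in nulls (-0.37 ± 0.19, adjusted p = 0.259, and -0.13 without WT-57). Among resident genes Timd4 (6.86, 6.88, 7.10 and 6.53 in wild types) differed by 0.43 ± 0.14 (adjusted p = 0.0636), Cd163 by 0.42 ± 0.14 (0.0641), Cd5l by 0.44 ± 0.17 (0.115) and Vsig4 (8.78, 8.75, 9.01 and 8.46) by 0.35 ± 0.14 (0.129). Cd68, at 7.33, 6.96, 7.52 and 7.09 in wild types, differed by 0.47 ± 0.15 (adjusted p = 0.0583). The wild-type DEHP livers read 5.18, 5.51, 5.68 and 5.54 for Marco, 7.19, 7.02, 7.23 and 6.67 for Adgre1, and 8.48, 8.33, 8.60 and 8.14 for C1qa. For Ccr2 they read 3.72, 3.62, 3.50 and 3.46, for Itgam 5.08, 5.49, 5.25 and 5.16, and for Lgals3 6.57, 6.73, 6.65 and 6.59. Those of Ccl2 were 5.19, 4.78, 5.13 and 5.17, and of Ccl4 4.68, 4.96, 5.06 and 4.95. None of these genes differed by genotype under DEHP past the threshold.

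Markers of other liver cells stood apart as well in this comparison. Of the 10 sinusoidal endothelial markers 7 were higher in null livers, led by the scavenger receptor Stab2 (0.49 ± 0.06), Kdr (0.49), Cdh5 (0.40), Tek (0.36) and Fcgr2b (0.37), with summed intensities of 3030 to 3330 in wild-type and 3790 to 4160 in null livers. Of the 10 stellate markers 4 were higher, Ecm1 (0.50), Reln (0.65), Hgf (0.65) and Pdgfrb (0.48), with sums of 1890 to 2050 and 2470 to 3120. Among related genes Id1 (-0.53), Id3 (-0.74), Il18 (-0.49) and Arg1 (-0.39) were lower. Arg1 lost its call in 4 of 7 single omissions and Pdgfrb in 6 of 7, at adjusted p of up to 0.164 and 0.239. Zeb2 (0.38), Bmp2 (0.45), C6 (0.64), the mannose receptor Mrc1 (0.41), Tgfb1 (0.33), Ccl9 (0.53), Cxcl9 (0.65) and Fn1 (0.49) were higher. Ly6g (0.30), Hnf4a (0.33) and Alas2 (0.63) were higher in the neutrophil, hepatocyte and erythroid lists. No T and NK cell or B cell marker passed in any comparison (12 and 7 measured). The part of these cells in the macrophage readings was not tested.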

How the data were processed

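Liver RNA of 15 mice was hybridised to Affymetrix arrays, 300 ng per sample, per the labels' protocols. The authors deposited 1 table of linear intensity values, 1.77 to 23336.67 over 35494 probe sets, already on a common scale. The sources used here do not say how the authors normalised these intensity values or name a batch. Log2 was taken with no offset and no further normalization. A single gene symbol was annotated for 21789 probe sets, more than 1 for 1621, and no symbol for 12084; the first kind gave 19938 genes, the brightest probe set kept for the 999 genes with several.

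A model with 1 mean per group over all 15 arrays was fitted in limma 3.58.1 (R 4.3.3; residual degrees of freedom 11, prior 4.68), with 5 contrasts and Benjamini-Hochberg adjustment over 19938 genes, threshold 0.05, no minimum fold. No label says animals were randomised or that arrays ran in batches. The p-values set a difference of means against the spread between animals, pooled over the 4 groups. For Mmp12 and Gpnmb the groups differed in spread, with SDs of 0.10 and 0.06 in wild-type and 1.20 and 1.27 in null controls. The pooled spread is then not that of the groups compared.

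The members and lists were chosen with earlier results of these data known. Values per sample are given for members called in any contrast, the 5 of smallest p per contrast and fixed markers; genes of the other lists are named where called, at most 5 per list and contrast. Alternatives were an offset of 16, quantile normalization, a filter (mean log2 of at least 5 in a group), the mean of a gene's probe sets, an intensity trend with robust eBayes, the contrast's groups alone, and each animal left out; leaving out KO-115 and KO-117 together was added after seeing the data. Promoters and gene names came from RefSeq (GRCm38.p6) through Python 3.11.15 with pandas 2.3.3; figures used matplotlib 3.10.9.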

Additional observations from a re-analysis of the deposited data

Results flagged for a closer look

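The lowest animal stood far from the others of its group in 2 of 78 pairs of a gene and a group of 4 animals, where chance alone marks about 1 in 20. Msr1 read 6.59 in the wild-type control WT-52 and 6.75 in the nearest other animal, a gap of 0.891 of the group's range. Ccl2 read 4.78 in the wild-type DEHP animal WT-57 and 5.13 in the nearest, a gap of 0.847 of the range. Neither gene passed the test in any comparison.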

How the results depend on the processing

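The count of called genes among the 40 stayed at 0 for DEHP in wild-type liver under all alternatives run. For null against wild type under corn oil (8 called) it ran from 5 to 9 over single omissions, and was 2 without KO-115 and KO-117. Gpnmb lost its call with the offset of 16, the intensity trend and the contrast's groups alone (adjusted p = 0.0598, 0.0797 and 0.108), and Ccr2 with the offset and the groups alone (0.0557 and 0.129). Ctss and Cd14 gained calls with the groups alone (0.0082 and 0.00766), and Ctss and Spi1 with the filter on dim genes (0.0461 and 0.0491). For DEHP in null liver (1 called) it was 3 with an offset of 16, 3 with the filter on dim genes, 2 with the intensity trend, 0 with the contrast's groups alone, 0 without KO-115 and KO-117, and 0 to 3 over single omissions. The genes gained were Mmp12 and Lgals3. For the difference of the DEHP effects (0 called) it was 3 with the filter (Lyz2, Cd14 and Ccl3), 1 with the intensity trend (Cd14) and 0 to 2 over single omissions. For null against wild type under DEHP (5 called) it was 8 with the filter, 8 with the trend, 2 with the contrast's groups alone and 1 to 10 over single omissions, with 1 without KO-122 and 10 without WT-58. The 2 called with the groups alone were Mpeg1 and Gpnmb. No called difference changed sign. The cause of these shifts was not tested, beyond the smaller number of genes tested under the filter and of animals under the omissions. No paired analysis was possible because the animal numbers differ between groups. With dim readings and no detection calls, the differences of Ccr2, Itgax, Tlr4 and Ccl4 are the least secure.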

Other observations

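Genes were ranked by how far the mean of the null corn oil livers exceeded the highest mean of the other 3 groups, a measure chosen after the values were seen and given as a description. Among 19938 genes Mmp12 ranked 1 (excess 1.96), Gpnmb 2 (1.28), Ccl3 5 (1.06), Lyz2 12 (0.62) and Lgals3 20 (0.51). Thus 5 of the first 20 genes were among the 40, and 8 of the first 50, with Itgax, Itgam and Ccr2. As the 40 genes were chosen with earlier results of these data known, these counts are not evidence of enrichment. The other genes in the first 20 included Chil3, Chil4, Retnlg and Retnla, secreted products of myeloid cells, and Cd63 and Capg, which macrophages express. They also included the hepatocyte enzymes Alas1, the first step of haem synthesis, and Sult1e1, which sulphates oestrogens. The rest were Tceal8, Lpin1, Cish, Ifit3b, Fabp7, Onecut1 and Nat8. Chil3, Chil4 and Retnla were dim, with means of 3.15, 2.73 and 2.75 in wild-type controls. Retnla was high in KO-115 alone (5.51), with 2.96 to 3.24 in the other null controls. Retnlg read 5.95 in KO-115 and 5.39 in KO-117, the animals in which Chil3 was high.

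A further list of 14 measured macrophage genes, picked after the values were seen, gave a mixed picture. In 8 of the 14 all null controls read above all wild-type controls, where 4.06% of all genes did. Since the list was picked from the same values, this count is a description only. In 2 of the 14 the null DEHP livers all lay below the null controls, where 4.42% of all genes did. These were Cd63 (5.71 in wild-type controls, 6.59 in null controls, 5.96 in null DEHP livers) and Cd52 (5.91, 6.79 and 6.11). Going the other way were Ctsd (11.42, 11.47 and 11.62) and Ctsb (11.43, 11.51 and 11.68). For both, all null DEHP livers lay above the null controls, where 5.57% of all genes did. Lpl, the lipase of foam cells, was 5.57, 6.35 and 6.34. Lipid-handling genes that hepatocytes also express, Plin2 (10.66, 10.49 and 10.45) and Fabp5 (6.83, 6.86 and 6.91), overlapped between null and wild-type controls.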
